A study of Mus musculus with 6 samples.

Results

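Cytosolic ribosomal protein genes encode the protein part of the ribosomes that translate nuclear-encoded mRNA. They were taken from the deposited table by symbol: Rpl or Rps followed by a digit, or Rplp0, Rplp1, Rplp2 or Rpsa, leaving out pseudogenes and the Rps6k kinases. The table spells the symbols of many of these genes in capitals or not at all, so each gene identifier was first given its mouse symbol from GENCODE M21. The rule then found 86 of 22274 genes, 52 for the large subunit (Rpl) and 34 for the small subunit (Rps). All 86 are annotated as protein coding, they lie on 19 chromosomes, and 84 carry the ribosome pathway annotation in the table. Applied to the deposited spelling alone, the rule would have found 41 entries, of which 35 are among the 86. One gene that meets the rule, Rps19bp1, encodes a protein that binds RPS19 and is not itself a ribosomal protein.

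The data are RNA-seq counts from 6 libraries of mouse kidney cells labelled as primary renal fibroblasts with wild-type genotype. TGF-β, a cytokine that activates fibroblasts, was given to both groups (5 ng/ml, 48 h), one with a scrambled control siRNA (3 libraries) and one with an siRNA against Prune2 (3 libraries). The labels do not say whether replicates were separate cultures, so each p-value speaks only of library-to-library spread, part or all of which may be technical.

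A ribosome joins a small subunit, which reads the mRNA, to a large subunit, which forms peptide bonds. Each ribosome holds a single copy of nearly every ribosomal protein, and mammalian mRNAs for these proteins start with a run of C and T bases, the 5′ terminal oligopyrimidine or TOP motif. Through this motif the kinase complex mTORC1 controls how strongly the mRNAs are translated, a step that mRNA counts do not measure.

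Library totals ran from 20075265 to 23234797 counts. Prune2 was at 6.49, 7.84 and 6.51 CPM (counts scaled to library size with edgeR's TMM factors) in the control libraries and at 3.77, 3.18 and 4.44 with Prune2 siRNA, with a log2 fold change of -0.87 and an edgeR adjusted p of 0.000214. In deposited FPKM, which also scales to transcript length, Prune2 was low and fell less, from 1.18 ± 0.132 to 0.847 ± 0.0643 (SD, n = 3 each). Summed leukocyte markers ran from 149 to 186 CPM in control libraries and from 35.9 to 38.4 with Prune2 siRNA, and edgeR called 12 of 12 lower. Summed fibroblast markers ran from 911 to 954 and from 689 to 734 CPM, and 4 of 8 tested were called lower. Endothelial markers summed to between 103 and 112 CPM in control libraries and between 77.0 and 80.3 with Prune2 siRNA, and 5 of 8 were called lower. Of the fibroblast markers, Dcn and Lum were near 0, while Vim ran from 364 to 598 CPM and Col1a1 from 191 to 239. Tubular epithelial markers summed to between 5008 and 5608 CPM over all libraries, above the fibroblast sum. The highest were Krt8, Krt18 and Cdh1, at 2430, 1290 and 1085 CPM in control library 1. The tubular list also had markers at or near 0. Aqp2 was at 0 in all libraries, Slc12a1 ran from 0.305 to 0.66 CPM and Umod from 1.05 to 2.01. Of 8 tested tubular markers, 2 were called higher (Cdh16 and Slc12a3) and 2 lower (Lrp2 and Krt8). Over all 13248 tested genes, edgeR called 4.46% higher and 5.83% lower. In such bulk samples fewer cells of a type and less RNA per cell cannot be told apart. The part of these marker differences in the ribosomal protein values was not tested.

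Sequences near RefSeq transcription starts are shown to place pyrimidine runs against the annotated first base, where a TOP motif would lie. The 30-base windows below (GRCm38.p6, transcript strand, 5′ to 3′) come from called genes and from 2 reference members, Rps6, the substrate of S6 kinase, and Rpl37, a small large-subunit protein. Capitals mark a C followed only by C or T, at least 8 bases long and within 50 bases of a RefSeq start. For Rps28 no such run was found, and the capital marks the annotated first base.
Rps12, chr10:23787181-23787210, minus strand: caccgccggCCTTTTCCCCTgccgccgccg
Rps27, chr3:90213631-90213660, minus strand: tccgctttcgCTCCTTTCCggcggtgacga
Rps21, chr2:180257399-180257428, plus strand: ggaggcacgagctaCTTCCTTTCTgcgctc
Rps16, chr7:28350632-28350661, plus strand: aattcacacgtCCCCTCTCaggcttcgacg
Rps28, chr17:33824547-33824576, minus strand: gtaccgcgtgcggtCtcgcgagagcgaaag
Rps6, chr4:86857349-86857378, minus strand: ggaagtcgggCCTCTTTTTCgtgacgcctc
Rpl37, chr15:5116632-5116661, plus strand: gcgggggtgCTTTCTCTTCCggtctctttg

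The run began 1 base before the annotated start in Rps6 and 2 bases before it in Rps27, so the annotated first base falls inside the run in these 2 of the 7 windows shown. It began 8 bases after the annotated start in Rps12, 28 after it in Rpl37 and 46 bases before it in Rps16. Rps21 has 2 RefSeq starts, and the run began 34 bases after the first and 36 before the other. RefSeq promoter entries covered 66 of the 86 genes with 78 start sites. A run was present at 59 of the 78 (75.6%), against 28.8% of all 32851 promoters of the same length. Large-subunit promoters held it in 80.9% and small-subunit promoters in 67.7%. The hexamer CTTTCC, read on the transcript strand within 50 bases of the start, stood in 30.8% of these promoters against 4.69% of all. CCGGAAG, a core bound by ETS factors, was searched on both strands of the whole 300-base promoter and stood in 34.6% against 8.86%, and AAGATGGC, a YY1 core searched likewise, in 10.3% against 2.75%. The TATA box word TATAAA, searched in the same way, stood in 8.97% against 13.6%. A match is only a description of these letters. Tested genes with a run (51) and without one (11) both had a median log2 fold change of 0.07.

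The ribosomal protein transcripts were abundant, filling 24 of the 100 highest places by mean FPKM, which scales fragments to transcript length and library size. Among tested large-subunit genes the mean FPKM had a median of 280 and reached 862 for Rplp0, the base of the ribosomal stalk. Among small-subunit genes the median was 283 and the highest value was 825 for Rps2, a protein near the mRNA entry channel. Next came Rpl23a (634 ± 15.2 FPKM in control libraries; SD, n = 3) and Rpl4 (628 ± 24.2) in the large subunit, and Rps24 (659 ± 27.1) and Rps6 (511 ± 18.7) in the small subunit. The lowest tested were Rpl22l1 at 38.0 and Rps19bp1 at 14.9 FPKM.

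With Prune2 siRNA, all 82 tested genes had a log2 fold change above 0, but the differences were small. The median was 0.07 for the 49 large-subunit genes and 0.08 for the 33 small-subunit genes, against 0.00 for all 13248 genes tested, of which 51.7% lay above 0. The small-subunit median was 0.036 without control library 3 and 0.11 without control library 1. The large-subunit median ran from 0.042 without Prune2 siRNA library 1 to 0.092 without Prune2 siRNA library 3. Without control library 3, 74 of the 82 lay above 0. In the large subunit, single genes ran from 0.01 to 0.16 and in the small subunit from 0.03 to 0.34. The 82 genes share the same 6 libraries, so their signs are not separate observations. For 76 of the 82, the upper end of the 95% interval lay below a 1.2-fold rise, including all 49 large-subunit genes. In simulated counts over 13248 genes, the test recovered 2% of genes changed 1.1-fold and 42% of those changed 1.2-fold. The changed genes were drawn from all tested genes and given a common spread. These shares therefore do not describe abundant genes such as most members.

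**Figure D1:**
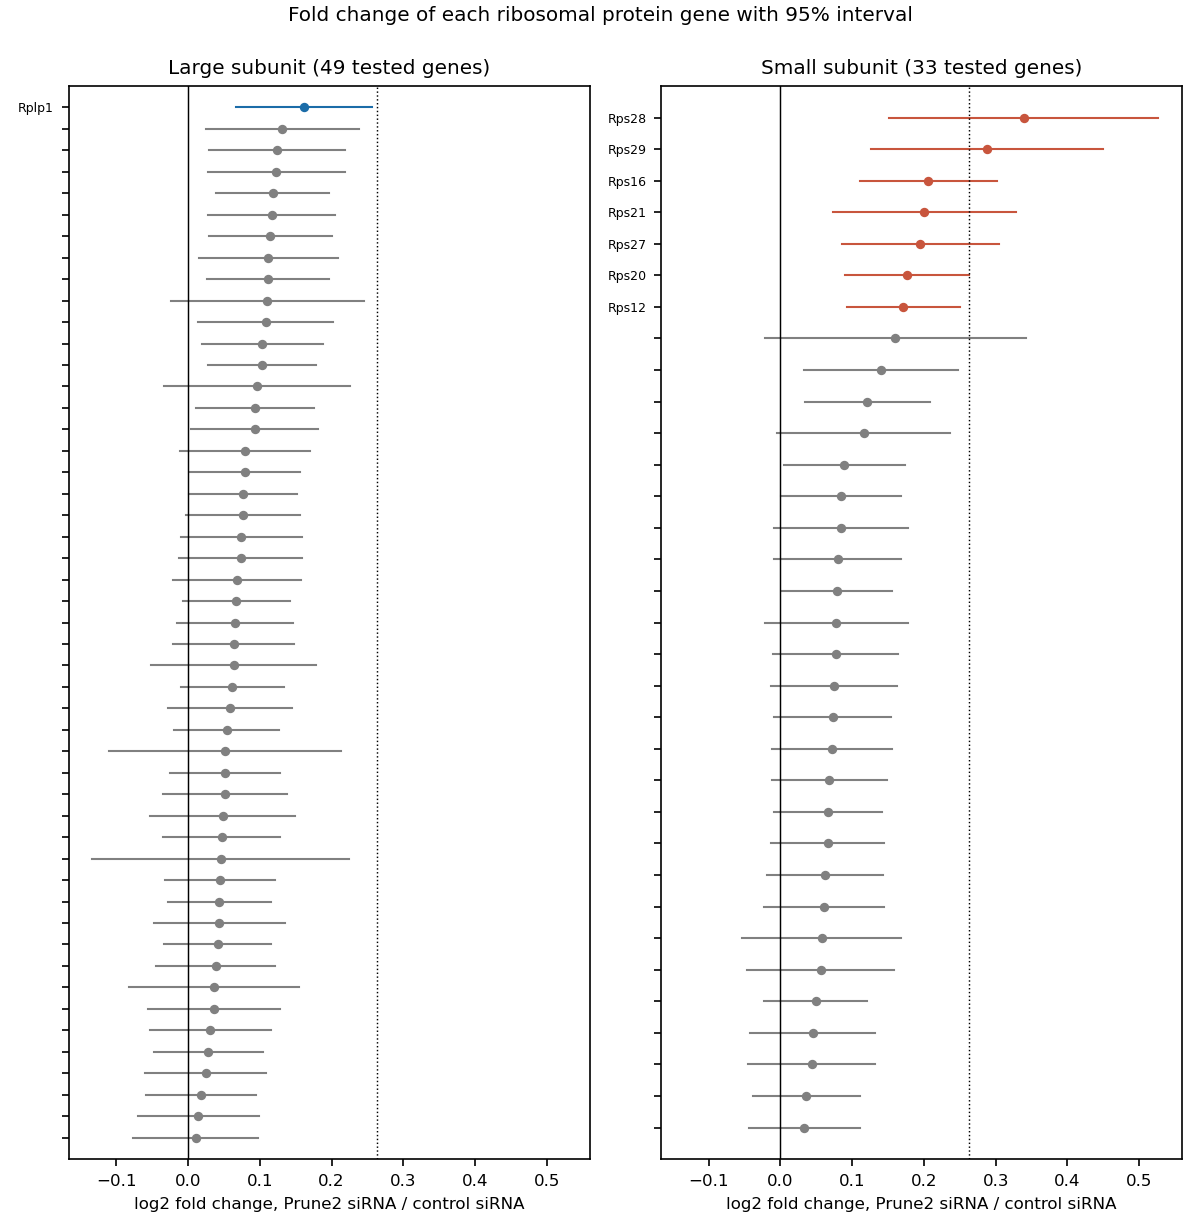
Log2 fold change (Prune2 siRNA over control siRNA) with its 95% interval for each of the 82 tested genes, large and small subunit apart, ordered by value, with called genes named and in colour and a dotted line at a 1.2-fold rise. All points lie above 0, and most intervals reach 0, since 28 of the 82 lie wholly above it.

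With edgeR's quasi-likelihood test, adjusted by Benjamini-Hochberg over all tested genes, 8 of the 82 were called higher at an adjusted p under 0.05, against a background of 4.46% of all tested genes. None was called lower, against a background of 5.83%, and an unadjusted p under 0.05 gave 28 higher and 0 lower, against 9.46% and 10.6% of all tested genes. Other abundant genes, 511 with a mean FPKM of at least 100, had 45 called higher and 43 lower by edgeR. At an unadjusted p under 0.05 these 511 had 66 higher and 74 lower. DESeq2 called 7 higher and 0 lower, against 3.48% and 4.93%, and limma-voom 9 and 0, against 4.4% and 5.8%. Limma on log2(FPKM + 1) called 5 and 0, against 2.64% and 2.47% of the genes in that analysis. The 8 became 16 without control library 1, 3 without control library 2, and 5 without either of Prune2 siRNA libraries 2 and 3. Over all tested genes, these refits called 482 of 13413, 423 of 13394, 551 of 13379 and 401 of 13386 higher, in that order. The 3 of 82 without control library 2 thus lie near the share over all genes. The large subunit had 1 called gene of 49 tested, Rplp1, a share not above the background of 4.46%. The small subunit had 7 of 33: Rps28, Rps29, Rps16, Rps21, Rps27, Rps20 and Rps12. Whether the subunits differ was not tested. Groups did not overlap, with all Prune2 siRNA libraries higher, for 9 large-subunit and 11 small-subunit genes, 20 of 82, against a background of 11.9%. No gene had all Prune2 siRNA libraries lower, against 12.4%. In the authors' deposited table, adjusted p-values of 6 of the genes passed 0.05, all higher, against a background of 1.89% of its genes.

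Among the called genes, Rps12, Rps16 and Rps20 were called in every one of 15 alternative analyses. Rps12 (ENSMUSG00000061983, chromosome 10, 23785183 to 23787275), a small-subunit head protein, was at 190, 185 and 174 CPM in control libraries 1, 2 and 3. With Prune2 siRNA it was at 204, 209 and 204 CPM. The groups did not overlap and the log2 fold change was 0.17 (SE 0.04, edgeR adjusted p = 0.00316, 0.000323 to 0.0376 over the alternatives). Per length, Rps12 was at 313 ± 13.2 FPKM in control libraries and Rps16 and Rps20 at 82.1 ± 4.78 and 25.1 ± 0.642 FPKM (SD, n = 3). FPKM also depends on the transcript length used: the annotated Rps20 transcript has 3706 bases and that of Rps12 584. In CPM, the control means of Rps12 and Rps20 were 183 and 93.5.

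Rps16 (ENSMUSG00000037563, chromosome 7, 28350652 to 28353155), whose protein tail reaches the decoding centre, was at 97.3, 86.5 and 90.2 CPM in control libraries. It was at 108, 100.3 and 107 CPM with Prune2 siRNA, so that every treated library was above every control. Its log2 fold change was 0.21 (SE 0.05, edgeR adjusted p = 0.00333, 0.000108 to 0.0492 over the alternatives).

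Rps20 (ENSMUSG00000028234, chromosome 4, 3831334 to 3835665), a head protein, was at 96.2, 91.2 and 93.0 CPM in control libraries. It was at 107, 108 and 102 CPM with Prune2 siRNA, again without overlap. Its log2 fold change was 0.18 (SE 0.04, edgeR adjusted p = 0.00507, 0.00149 to 0.0476 over the alternatives).

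The largest differences were in 2 very short proteins, and these rest in part on control library 2. Rps28 (ENSMUSG00000067288, chromosome 17, 33819027 to 33824562), located at the mRNA exit site, was at 21.3, 15.4 and 21.8 CPM in control libraries and at 24.6, 24.99 and 24.8 CPM with Prune2 siRNA. Control library 2 was far below the other two, and the groups did not overlap. The log2 fold change of Rps28 was 0.34 (SE 0.09, edgeR adjusted p = 0.0139), and without control library 2 it was 0.20 with an edgeR adjusted p of 0.144. The call was also lost without Prune2 siRNA library 3 (adjusted p = 0.0512) and with limma on log2(FPKM + 1) (adjusted p = 0.126).

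Rps29 (ENSMUSG00000034892, chromosome 12, 69157722 to 69159186), a zinc-binding head protein, was at 27.3, 21.8 and 29.6 CPM in control libraries and at 32.6, 31.8 and 32.1 CPM with Prune2 siRNA. Control library 2 was again the lowest and the groups did not overlap. The log2 fold change was 0.29 (SE 0.08, edgeR adjusted p = 0.0158), and 0.17 with an edgeR adjusted p of 0.176 without that library. Without Prune2 siRNA library 3 the adjusted p was 0.0567, and with limma on log2(FPKM + 1) it was 0.0894.

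Rps27 (ENSMUSG00000090733, chromosome 3, 90212522 to 90213651), a zinc-finger protein, was at 47.9, 43.4 and 45.9 CPM in control libraries and at 52.6, 53.8 and 50.7 CPM with Prune2 siRNA, without overlap. Its log2 fold change was 0.20 (SE 0.05, edgeR adjusted p = 0.0154). The call was lost without control library 2 (adjusted p = 0.128) and without Prune2 siRNA library 2 (adjusted p = 0.0617).

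Rps21 (ENSMUSG00000039001, chromosome 2, 180257377 to 180258445) was at 25.7, 26.5 and 28.1 CPM in control libraries and at 30.9, 30.9 and 30.7 CPM with Prune2 siRNA, without overlap. Its log2 fold change was 0.20 (SE 0.06, edgeR adjusted p = 0.0356). The call was lost with DESeq2 (adjusted p = 0.105) and on leaving out any library but control library 3, with adjusted p-values from 0.0774 to 0.159.

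**Figure D2:**
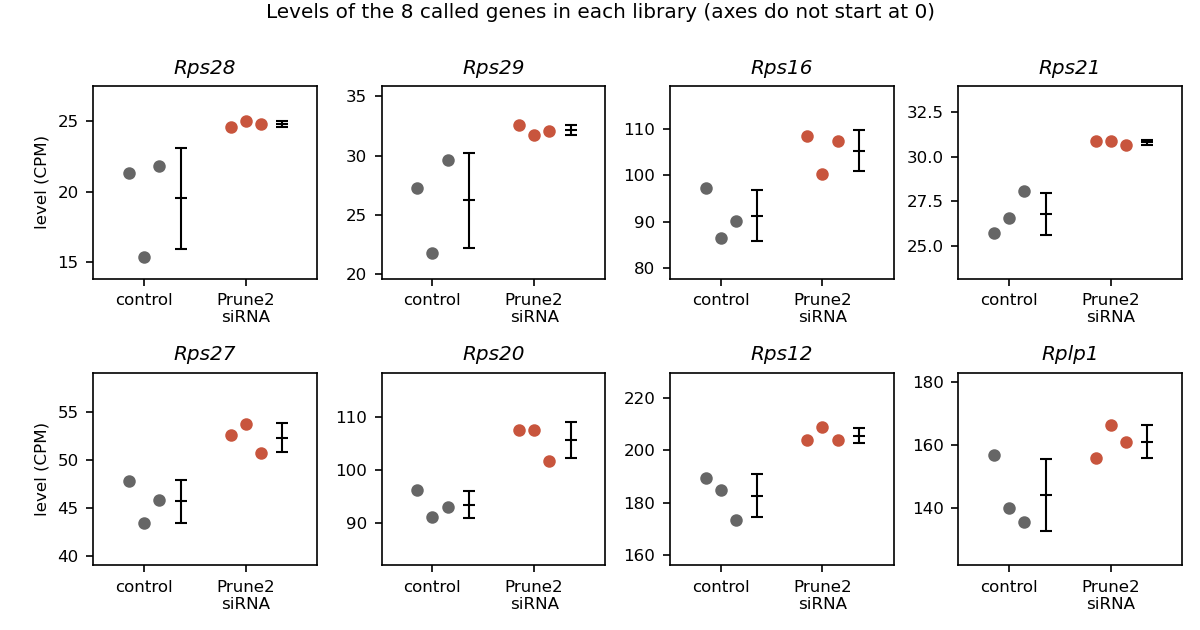
Level (CPM) of the 8 called genes in each library, with control and Prune2 siRNA replicates 1 to 3 from left to right in each group and the mean ± SD beside them; the axes do not start at 0. Control replicate 2 stands low in Rps28 and Rps29, and only Rplp1 has overlapping groups.

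The ribosomal stalk, which recruits translation factors, is built of Rplp0 with dimers of Rplp1 and Rplp2. Rplp1 (ENSMUSG00000007892, chromosome 9, 61913284 to 61914542) was at 157, 139.9 and 135 CPM in control libraries and at 156, 166 and 161 CPM with Prune2 siRNA. Control library 1 was above Prune2 siRNA library 1, so the groups overlapped. The log2 fold change of Rplp1 was 0.16 (SE 0.05, edgeR adjusted p = 0.0211), and the call was lost without any one of control libraries 2 and 3 and Prune2 siRNA libraries 2 and 3 (adjusted p from 0.0687 to 0.153) and with limma on log2(FPKM + 1) (adjusted p = 0.1005).

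Rplp2 was at 102, 94.2 and 108 CPM in control libraries and at 114, 109 and 109 CPM with Prune2 siRNA, without overlap. It did not pass the test (log2 fold change 0.12, edgeR adjusted p = 0.0993) but was called without control library 3 (edgeR adjusted p = 0.0213). Rplp0, the most abundant member of the stalk, was at 1192, 1177 and 1062 CPM against 1252, 1154 and 1166 CPM. Its groups overlapped, and its log2 fold change was 0.06 (edgeR adjusted p = 0.502).

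The large-subunit genes nearest to Rplp1 in size of difference were Rpl37 and Rpl37a, zinc-binding proteins of the large subunit. Rpl37 was at 73.4, 64.8 and 72.1 CPM against 75.9, 81.3 and 73.4 CPM, where the groups overlapped, with a log2 fold change of 0.13 (edgeR adjusted p = 0.125). Rpl37a was at 61.4, 60.1 and 63.2 CPM against 67.9, 66.5 and 66.8 CPM, where they did not (0.12, edgeR adjusted p = 0.0991). Neither passed the test.

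At the other end, Rpl7l1, Rpl17 and Rpl6 had the smallest log2 fold changes of the large subunit, at 0.01, 0.01 and 0.02. In the small subunit, Rps23, a decoding-site protein, and Rps26 were among the smallest, at 0.03 and 0.04. The signs of Rpl17, Rpl6 and Rpl7l1 and that of Rps26 turned when single libraries were left out.

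A set of members best known for a role besides translation was named whatever its values: Rpl5, Rpl11, Rps6, Rps3, Rpsa, Rpl13a and Rps27a, none of which passed the test. Rpl5 and Rpl11, which bind MDM2 together with 5S RNA, had log2 fold changes of 0.06 and 0.09. Rpl5 was at 497 ± 10.5 CPM in control libraries and 519 ± 12.1 with Prune2 siRNA, and Rpl11 at 171 ± 9.28 and 182 ± 1.81 (SD, n = 3 each). Rps6 was at 464, 457 and 431 CPM against 497, 458 and 462 CPM, with overlapping groups and a log2 fold change of 0.07. Rps3, a DNA-damage endonuclease and entry-channel protein, had 0.07, Rpsa, the laminin receptor precursor, 0.08, and Rpl13a, a part of the GAIT translation-silencing complex, 0.06. Rps27a, a fusion of ubiquitin and a ribosomal protein, had 0.08 and groups that did not overlap.

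The 3 members of each subunit with the highest mean FPKM did not pass the test. Rps2 was at 892, 813 and 727 CPM in control libraries and at 876, 813 and 838 CPM with Prune2 siRNA, with a log2 fold change of 0.06 (edgeR adjusted p = 0.605). Control library 1 was the highest of all 6 for Rps2 and control library 3 the lowest, and the log2 fold change was -0.02 without control library 3. Rpl4 had 0.04, Rps24 0.06 and Rpl23a 0.12 (edgeR adjusted p = 0.0513), and Rpl23a was called in 6 of the 15 alternatives.

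Some members have a close relative that encodes a variant protein. The FPKM ratio of Rps27 to Rps27l, a p53-induced relative, was 1.68, 1.61 and 1.65 in control libraries and 1.78, 1.85 and 1.81 with Prune2 siRNA. Rps27l itself had a log2 fold change of 0.06 (edgeR adjusted p = 0.626). Mean FPKM ratios in control and Prune2 siRNA libraries were 13.8 and 14.5 for Rpl7 over Rpl7l1, 3.33 and 3.33 for Rpl22 over Rpl22l1, and 1.28 and 1.34 for Rpl36a over Rpl36al. Rpl7 and Rpl36a had groups that did not overlap, at log2 fold changes of 0.10 and 0.11, and did not pass the test. Rpl7 was called in 3 of the 15 alternatives. Neither Rpl3 (log2 fold change 0.04) nor Rpl39 (0.11) had a tested relative. Rpl10l and Rpl39l, both known mainly from testis, had 0 counts in all libraries. Rpl3l, a muscle form, had 3, 0 and 0 counts in control libraries and 0, 2 and 0 with Prune2 siRNA, and Rps27rt, a retrogene of Rps27, had 0, 0 and 3 against 0, 5 and 5 counts. These 4 were not tested.

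Copies limit what single counts mean. A median of 49.2% of the 50-base words of each member's transcript also occurred in other annotated genes, 98.6% for Rps27 and 83.2% for Rps12 against 7.44% for Rps20. The Rps20 share is taken over an annotated transcript of 3706 bases with a coding part of 357, and 31 other genes held words of it, so the low share does not show that Rps20 lacks copies. The sources used here do not say how the authors' counting treated such reads. The retrocopy Rpl10-ps3 (chromosome 9, 50344201 to 50344968) held more counts than Rpl10 itself (chromosome X, 74270812 to 74273135): 8827, 8331 and 8595 in control libraries and 8896, 8809 and 9812 with Prune2 siRNA, against 4741, 5157 and 5566 and then 5406, 6198 and 5647 for Rpl10. Rpl10 alone had a log2 fold change of 0.07 and Rpl10-ps3 one of 0.00. Their summed level was 650 ± 31.2 CPM and 663 ± 10.4 CPM (SD, n = 3), a ratio of 1.02. Over the tested members the log2 fold change and the share of shared words had a Pearson r of -0.08 (82 genes in the same libraries, a description).

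Summed over all members, the share of all counts was 2.10%, 2.05% and 1.95% in control libraries and 2.21%, 2.12% and 2.11% with Prune2 siRNA. The large subunit took 1.33%, 1.31% and 1.25% against 1.41%, 1.35% and 1.34%, and the small subunit 0.770%, 0.742% and 0.703% against 0.808%, 0.771% and 0.773%. Margins between the groups were narrow over all members (2.102% in control library 1, 2.110% in Prune2 siRNA library 3) and in each subunit. Still, the shares did not overlap between groups. After TMM scaling they did: the summed level was 21147, 20572 and 19535 CPM in control libraries and 22061, 21230 and 20937 CPM with Prune2 siRNA, a ratio of means of 1.05, and control library 1 was above Prune2 siRNA library 3. The ratio of small to large subunit CPM was 0.578, 0.567 and 0.563 against 0.575, 0.572 and 0.578, with overlapping groups.

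**Figure D3:**
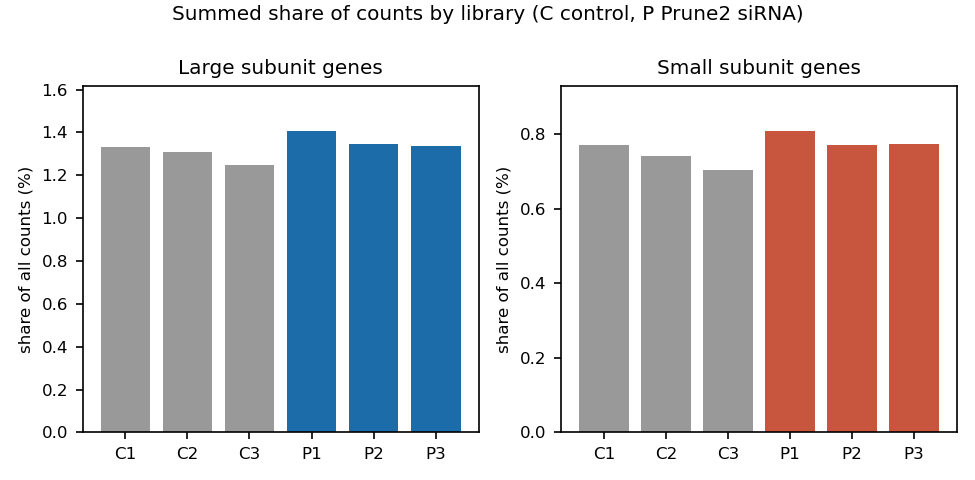
Share of all counts (%) taken by the large-subunit and small-subunit genes in each of the 6 libraries. The lowest bar is control 3 (1.25% and 0.703%) and the highest Prune2 siRNA 1 (1.41% and 0.808%) in both panels.

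The members also moved together within groups. Control library 3 was the lowest of the 6 libraries for 51 of the 82 tested genes, and Prune2 siRNA library 1 the highest for 58. The members' median log2 deviation was 0.05, -0.00 and -0.05 across control libraries 1 to 3 and 0.11, 0.07 and 0.04 with Prune2 siRNA, so control library 1 was above Prune2 siRNA library 3 on this measure too.

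Coding length moved with the differences. Coding sequences of the members ran from 138 to 1257 bases with a median of 453, against 1413 for other tested genes. Under 400 bases, 28 members had a median log2 fold change of 0.08 and 7 were called. From 400 to 600 bases, 31 had a median of 0.08 with 1 called, and over 600 bases 23 had a median of 0.06 with 0 called by edgeR, against 4.46% of all tested genes called higher. Small-subunit genes under 400 bases had a median of 0.17 with 6 of 11 called, and large-subunit genes of that length 0.07 with 1 of 17. Other genes under 400 bases with a mean FPKM of at least 100 had a median of 0.03, with 5 of 39 called higher and 4 lower.

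Library 2 of the controls also moved with length among its own replicates. The log2 ratio of control library 2 to the mean of controls 1 and 3 had a Pearson r of 0.57 and a Spearman rho of 0.63 with log2 coding length over the 82 members. The same measure gave -0.52 and -0.49 for control library 3, 0.33 and 0.41 for Prune2 siRNA library 1, and -0.36 and -0.38 for Prune2 siRNA library 2. It gave -0.09 and -0.11 for control library 1 and 0.12 and 0.09 for Prune2 siRNA library 3. The log2 fold change itself had an r of -0.46 and a rho of -0.37 with log2 coding length. These genes share libraries, depth and overlapping length and level, and the part of length in the calls was not tested.

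**Figure D4:**
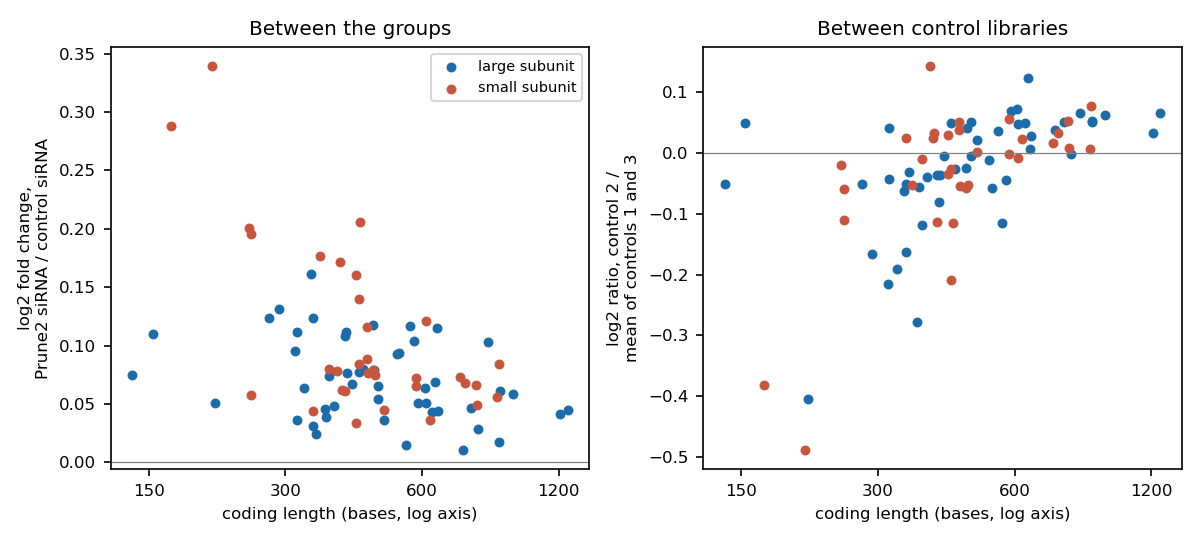
Left, log2 fold change (Prune2 siRNA over control siRNA) against coding length in bases (log axis) for the 82 tested genes, large and small subunit in separate colours; right, the log2 ratio of control library 2 to the mean of controls 1 and 3 against the same length. The highest points on the left, Rps28 (0.34) and Rps29 (0.29), are among the shortest genes, and the lowest points on the right are also short genes.

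Small nucleolar RNAs, which guide chemical modification of ribosomal RNA, are encoded in introns of many ribosomal protein genes. They lay inside 30 of the members, 58 in all. The 30 had a median log2 fold change of 0.07 with 3 called higher, and the 52 tested members without one had 0.08 with 5, against 4.46% of all tested genes called higher.

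Other genes of ribosome supply and translation were counted from lists. Of 89 ribosome biogenesis genes, edgeR called 0 in either direction, against 4.46% of all tested genes called higher and 5.83% lower. At an unadjusted p under 0.05, 3 were higher and 0 lower, against 9.46% and 10.6%. DESeq2 and limma-voom called 0, and the median of the list was 0.03. Of the 89, 62 lay above 0, against 51.7% of all tested genes. RNA polymerase I and its factors, which make ribosomal RNA, had 0 of 17 called by the same 3 tools, 0 at an unadjusted p under 0.05 and a median of 0.02. With only 17 genes, 0 calls by edgeR lie near the shares over all tested genes. Of the 17, 12 lay above 0. Elongation factors and other TOP mRNAs had 18 of 18 log2 fold changes above 0, against 51.7% of all tested genes, and a median of 0.04. Of these 18, edgeR, DESeq2 and limma-voom called 0, which for so few genes also lies near those shares. At an unadjusted p under 0.05, 1 of the 18 was higher, against 9.46% of all tested genes. The list includes Fau (0.03) and Rack1 (0.08), ribosomal proteins that the symbol rule leaves out, and neither passed the test.

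Translation initiation factors had a median of 0.00 and 17 of 34 above 0, against 51.7% of all tested genes. Of the 34, 1 was called higher and 0 lower, against 4.46% and 5.83% of all tested genes. The called gene was Eif3f, a subunit of initiation factor eIF3, at 201 ± 4.42 CPM in control libraries and 220 ± 1.62 with Prune2 siRNA (SD, n = 3; log2 fold change 0.13, edgeR adjusted p = 0.0188). Genes of mTORC1 and TOP control had 4 of 27 called higher and 1 lower by edgeR, against 4.46% and 5.83% of all tested genes. DESeq2 called 3 higher and 1 lower, against 3.48% and 4.93%, and limma-voom 4 and 1, against 4.4% and 5.8%. Limma on log2(FPKM + 1) called 0 in either direction. For so few genes, 0 lies near the 2.64% and 2.47% of all genes in that analysis. Of the 27 log2 fold changes, 16 lay above 0. Deptor, an mTOR inhibitor, was at 21.7 ± 2.06 and 26.6 ± 1.27 CPM (log2 fold change 0.29, edgeR adjusted p = 0.00844). Myc, a transcription factor that drives ribosome production, was at 137 ± 9.22 and 154 ± 4.0 CPM (0.17, edgeR adjusted p = 0.0115). Sesn3, a sestrin that restrains mTORC1, was at 415 ± 1.73 and 375 ± 9.30 CPM (-0.14, edgeR adjusted p = 0.00522).

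Mitochondrial ribosomal proteins, which serve a separate ribosome, had a median of 0.03 and 54 of 78 above 0, against 51.7% of all tested genes. Of the 78, 1 was called higher and 0 lower, against 4.46% and 5.83% of all tested genes. The called gene was Mrpl24, at 45.5 ± 1.27 and 52.2 ± 2.31 CPM (SD, n = 3; log2 fold change 0.20, edgeR adjusted p = 0.0131). Among 511 other genes with a mean FPKM of at least 100, the median was 0.00, with 45 called higher and 43 lower, against the same 4.46% and 5.83%.

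**Figure D5:**
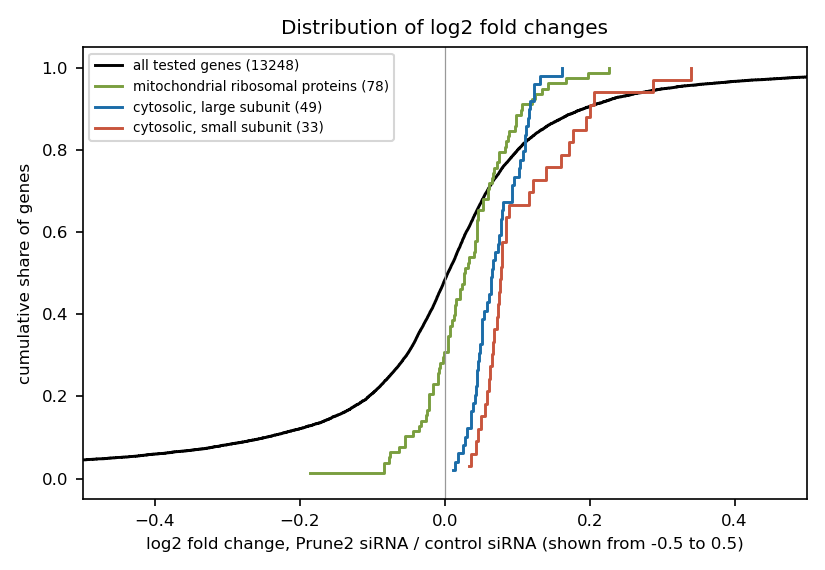
Cumulative share of genes against log2 fold change, Prune2 siRNA over control siRNA, drawn from -0.5 to 0.5 for all 13248 tested genes, 78 mitochondrial ribosomal proteins, and 49 large-subunit and 33 small-subunit cytosolic ones. The 2 cytosolic curves start above 0, at 0.01 and 0.03, and are steeper than the curve of all genes.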

How the data were processed

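Read counts and FPKM values of 22274 genes in 6 libraries were used as deposited by the authors, 3 per group by sample title. Per the file headers, the authors' table also gives a log2 fold change and p-values. GRCm38 and mm10 are the builds per the submitters' processing notes; for the aligner, counter, annotation and the authors' test the entry is: not given in the sources used here. Symbols, positions and coding lengths came from GENCODE M21 (22219 identifiers matched).

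Counts were tested with edgeR 4.0.16 (R 4.3.3): filterByExpr, TMM, glmQLFit and glmQLFTest, adjusted over 13248 genes. CPM uses the TMM-scaled library sizes. Alternatives were DESeq2 1.42.0, limma 3.58.1 (voom; log2(FPKM + 1) and log2(FPKM + 0.1) over 11365 genes), other scalings, no filter, a replicate block and each library left out. Tests were checked on simulated counts.

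Members and gene lists were chosen with earlier results of these data known. Genes named are those called, the 3 highest and 3 lowest log2 fold changes and the 3 highest FPKM of each subunit, set members with other roles, paralogs with their parents, untested members, and up to 2 called genes per direction in each other list. Rpl37 also stands among the sequences by choice. A few genes named by these rules are not reported here.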

Additional observations from a re-analysis of the deposited data

How the results depend on the processing

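Over 15 alternative analyses no member was called lower, against 273 to 897 of all tested genes. With edgeR the large subunit had 1 called gene of 49 and the small subunit 7 of 33. With library totals only these were 3 and 8, with DESeq2 1 and 6, with limma-voom 2 and 7, without a filter 5 and 10, and on log2(FPKM + 1) and log2(FPKM + 0.1) alike 0 and 5. These 2 FPKM analyses called 300 and 295 of all genes higher and 281 and 273 lower, against 591 and 773 with edgeR. Of all 13248 genes, library totals called 654 higher, DESeq2 461 and limma-voom 583. Without a filter 708 of 17028 were called higher. Leaving out each library gave 0 to 7 in the large and 3 to 9 in the small subunit, and 74 to 82 of 82 tested members above 0. Over all tested genes, these refits called 401 to 551 higher. Deviations of same-numbered libraries from their group means had correlations of 0.031, -0.037 and -0.017 over the tested genes. With 3 libraries per group, these values cannot show whether same-numbered libraries were handled as pairs. With the replicate number as a block 5 and 10 were called, and 664 of all tested genes were called higher. Chosen after seeing the data, members under 50% shared words gave 0 and 4, and the deposited spelling 1 and 1.

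With each library left out in turn, 7 named members changed sign, and the cause was not tested. Their log2 fold changes ran from -0.034 to 0.046 for Rpl17 (negative without control library 3 and without Prune2 siRNA library 1), -0.041 to 0.13 for Rpl22l1 (control 2, Prune2 siRNA 2), -0.038 to 0.080 for Rpl36al (Prune2 siRNA 1), -0.014 to 0.037 for Rpl6 (control 3, Prune2 siRNA 1), -0.015 to 0.025 for Rpl7l1 (control 1, Prune2 siRNA 1), -0.020 to 0.13 for Rps2 and -0.015 to 0.090 for Rps26 (both control 3). The median of all genes was 0.0042 with TMM and 0.013 with library totals. In the simulated counts, changes of 1.1-fold were mostly not recovered. That result covers genes drawn from all tested genes and does not describe abundant genes such as most members.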
